A study of Mus musculus with 8 samples.

Results

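Lin28a, Utf1, Tcl1, Gbx2 and Nkx1-2 are transcribed in mouse embryonic stem cells (ESCs), which are pluripotent lines derived from the blastocyst. They were chosen by symbol because their levels were much lower in cells treated with a MYC inhibitor, so that difference is given here as a description without a test. They are 5 of the 18193 genes measured, and all 10 probe sets that carry 1 of these symbols alone, of 34945 probe sets with a single gene, were analysed. No filter on level was applied, so all 10 entered the fit.

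The cells were cultured without feeders or serum in 2i medium, which is N2B27 with leukaemia inhibitory factor (LIF), the MEK inhibitor PD0325901 at 1 μM and the GSK3 inhibitor CHIR99021 at 3 μM. DMSO cells (3 arrays) received the solvent for 60 h. Inhibitor-treated cells (2 arrays, MYCi) received 64 μM 10058-F4, a compound that blocks the pairing of MYC with MAX, for 60 h. Released cells (3 arrays, Resc) received 10058-F4 for 60 h and were then kept for 48 h in 2i medium without it. The labels name neither the cell line nor its genotype, and do not say whether the replicate arrays of a group represent independent cultures. The p-values therefore reflect array-to-array spread alone, which may be technical. Released cells were harvested 48 h later than DMSO cells, so withdrawal and added culture time cannot be told apart in any difference between these groups.

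The 5 genes act at different levels of the cell. LIN28A is an RNA-binding protein that blocks the maturation of the let-7 microRNAs, and UTF1 is a chromatin-bound protein of undifferentiated cells whose gene is a classical target of OCT4 and SOX2. TCL1 binds the AKT kinases and raises their activity, and its gene is transcribed in ESCs and early germ and lymphoid cells. GBX2 and NKX1-2 are homeobox transcription factors. Gbx2 is induced by LIF and STAT3 in ESCs and later patterns the anterior hindbrain, while Nkx1-2 is known from the caudal epiblast, where the progenitors of spinal cord and trunk mesoderm lie. MYC and MAX bind the E-box CACGTG as a dimer.

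All values are log2 expression values made by robust multi-array average (RMA), and a difference of 1 is a change by a factor of 2. Levels were compared only within a probe set, because different probe sets bind with different strength. On the 8 arrays the probe sets of the bacterial Trpn control, which has no target in mouse RNA, read between 2.15 and 2.95, and differences near this level are compressed. Across genes, Pearson correlations were 0.9977 to 0.9982 within a group, 0.9954 to 0.9962 between DMSO and released arrays and 0.9803 to 0.9808 between DMSO and inhibitor-treated arrays. The 3′ minus 5′ difference of the Gapdh controls, which tracks RNA integrity, was -0.216 to -0.148 on the inhibitor-treated arrays, against -0.13 to -0.108 on DMSO and -0.133 to -0.117 on released arrays. Its part in the results was not tested. Arrays have no read depth, and their number limits the precision.

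The promoters of 4 of the genes are shown because the compound acts on a factor with a known DNA motif. Each sequence is the 250 bases before the annotated start in RefSeq (GRCm38.p6), written 5′ to 3′ on the strand of the gene. Capitals mark the E-box CACGTG and the GC box GGGCGG, which appears as CCGCCC where it lies on the opposite strand. All 5 genes matched an entry, and the Gbx2 window is chr1:89931177-89931426 (minus strand), the Nkx1-2 window chr7:132599638-132599887 (minus), the Utf1 window chr7:139943606-139943855 (plus) and the Tcl1 window chr12:105222738-105222987 (minus).
Gbx2: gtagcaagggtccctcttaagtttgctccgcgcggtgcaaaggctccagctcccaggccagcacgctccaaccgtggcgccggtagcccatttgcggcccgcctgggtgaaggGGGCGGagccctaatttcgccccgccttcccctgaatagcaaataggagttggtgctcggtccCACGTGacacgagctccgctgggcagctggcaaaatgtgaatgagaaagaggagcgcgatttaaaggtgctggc
Nkx1-2: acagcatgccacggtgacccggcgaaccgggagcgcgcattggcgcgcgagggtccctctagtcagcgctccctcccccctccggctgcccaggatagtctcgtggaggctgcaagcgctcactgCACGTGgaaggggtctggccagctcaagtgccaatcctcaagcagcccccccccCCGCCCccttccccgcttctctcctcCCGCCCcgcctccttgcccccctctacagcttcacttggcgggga
Utf1: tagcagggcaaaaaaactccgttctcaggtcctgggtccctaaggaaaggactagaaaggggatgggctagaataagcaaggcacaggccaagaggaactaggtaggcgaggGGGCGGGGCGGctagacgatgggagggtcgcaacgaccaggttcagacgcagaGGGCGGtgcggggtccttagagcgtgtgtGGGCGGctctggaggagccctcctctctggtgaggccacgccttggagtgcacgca
Tcl1: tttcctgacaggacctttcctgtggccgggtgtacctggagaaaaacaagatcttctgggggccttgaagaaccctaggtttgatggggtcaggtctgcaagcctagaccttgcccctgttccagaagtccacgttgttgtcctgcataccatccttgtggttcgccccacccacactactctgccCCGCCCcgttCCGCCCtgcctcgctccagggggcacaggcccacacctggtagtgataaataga
The Gbx2 window holds a CACGTG from 74 to 69 bases before the start and the Nkx1-2 window holds one from 125 to 120 bases before it. None was found in the Utf1 and Tcl1 windows, nor in the Lin28a window, which lies inside the span annotated for Lin28a and so is not upstream of every annotated Lin28a sequence. The Lin28a sequence is not shown for that reason. This motif was found in 6.02% of 32851 promoter windows of this length and in 7.42% of those of 14452 genes tested here. GC boxes were found in the 4 windows shown and not in the Lin28a window, while 32.7% of all windows and 49.3% of those of the genes tested hold one. In Utf1 there are 4 GC boxes, the farthest pair of which overlaps by 1 base. The motifs CACGCG, ATGCAAAT (the octamer), TATAAA and CCAAT were searched too, on both strands. Only CCAAT was found, in Nkx1-2, from 212 to 208 and from 95 to 91 bases before the start, and 33.8% of all windows and 35.5% of those of the genes tested hold it. These are letter matches in 250 bases, and the arrays do not measure binding.

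In inhibitor-treated cells, 9 of the 10 probe sets read lower than on every DMSO array, by 1.3-fold to at least 13.6-fold. Among all 34945 probe sets, 33.4% were lower without overlap between these groups, and nothing is read from the members' share because this contrast chose them. In released cells, 9 of 10 were again higher than on both inhibitor-treated arrays. Those arrays also served to choose the members, so nothing is read from this count. By a different measure, 19.9% of all probe sets were called higher in released than in inhibitor-treated cells (adjusted p under 0.05). Against DMSO, which was not used for the choice except through its shared DMSO arrays, 4 of the 10 probe sets differed at an adjusted p under 0.05: 2 of Lin28a lower, and 1 each of Gbx2 and Nkx1-2 higher. Over all probe sets 6.63% were called in this comparison. The same 4 probe sets had no overlap between released and DMSO arrays, against 26.7% of all probe sets without overlap in either direction. Taking for each gene the probe set with the highest mean, called here the main probe set, 3 of 5 genes were called (2 higher, 1 lower), against 8.66% of 18193 genes.

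**Figure D1:**
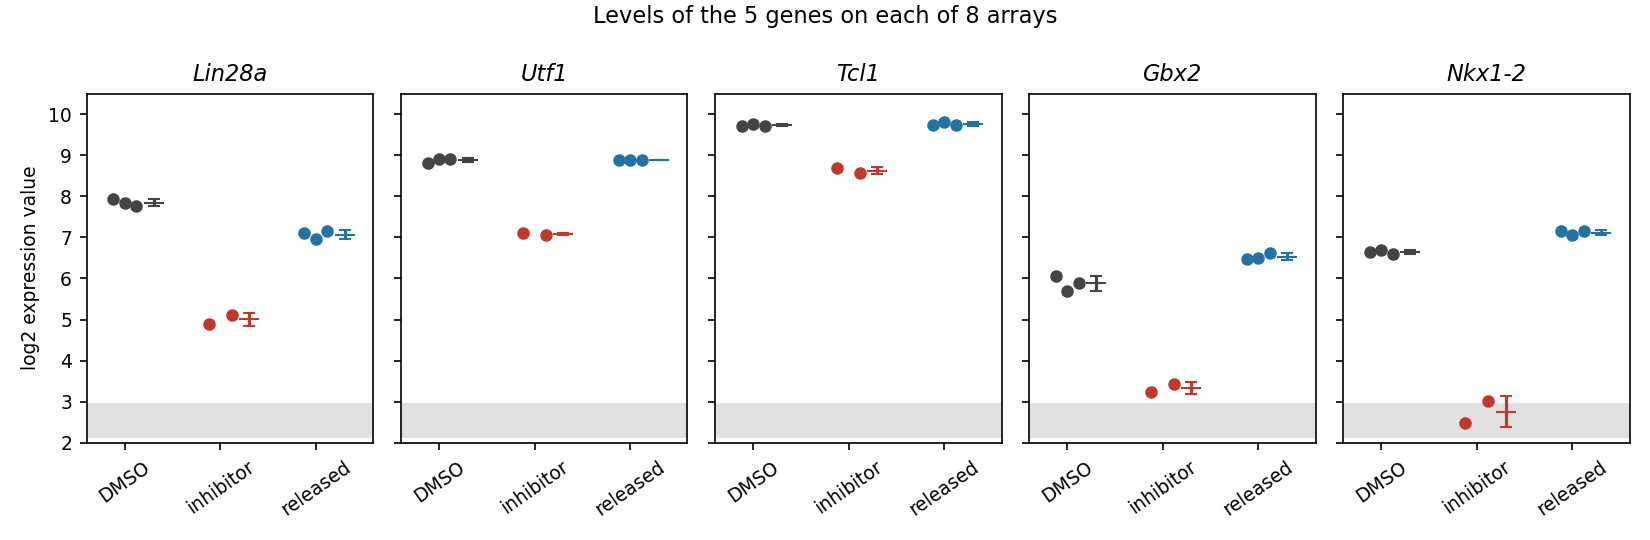
Log2 expression of the main probe set of each gene (vertical axis) in DMSO, inhibitor-treated and released cells; points are arrays, dashes with bars are the mean ± SD, and the grey band is the range of the Trpn control (2.15 to 2.95). The inhibitor-treated arrays lie below the other groups for each of the 5 genes, the lowest in Nkx1-2 (2.49 and 3.02), and heights are not comparable between genes.

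Lin28a, the let-7 blocker, remained below its DMSO level after the inhibitor was withdrawn. Its main probe set (1437752_at) read 7.94, 7.83 and 7.76 in DMSO cells, 4.90 and 5.12 in inhibitor-treated cells, and 7.10, 6.95 and 7.16 in released cells. The 3 groups did not overlap, and released cells lay between the others. The means were 7.84 ± 0.09 (SD, n = 3), 5.01 ± 0.16 (n = 2) and 7.07 ± 0.11 (n = 3).

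The inhibitor-treated level of Lin28a was lower than that in DMSO by a log2 difference of -2.83 ± 0.097 (moderated SE), or 7.13-fold. Released cells were 4.17-fold above inhibitor-treated cells, which made up 72.7% of the log2 gap, with 68.5% to 75.9% on the single arrays. Released cells were still 1.71-fold below DMSO, by -0.77 ± 0.087 with a 95% interval of -0.97 to -0.58 (limma, adjusted p = 0.000785). Of 18193 genes, 66 (0.363%) were at least this far below DMSO in released cells.

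The other probe set of Lin28a (1421749_at) gave the same order at a lower reading. It read 4.86, 4.92 and 5.24 in DMSO, 3.95 and 4.05 with the inhibitor, and 4.56, 4.60 and 4.55 in released cells, again without overlap. The inhibitor difference was -1.01 ± 0.11 (2.01-fold), and released cells had regained 57.0% of it. The released difference from DMSO was -0.43 ± 0.095 (limma, adjusted p = 0.0249). This call ended when any 1 of the released arrays was left out, with adjusted p of 0.0758, 0.0641 and 0.0737 without replicates 1, 2 and 3.

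Utf1, the chromatin-bound OCT4 and SOX2 target, read within the DMSO range in released cells. The main probe set (1416899_at) read 8.81, 8.92 and 8.90 in DMSO, 7.11 and 7.06 with the inhibitor, and 8.88, 8.89 and 8.88 in released cells. The released arrays lie inside the DMSO range and both inhibitor-treated arrays lie below it. The inhibitor difference was -1.79 ± 0.067 (3.46-fold), while the released difference from DMSO was 0.005 ± 0.060 with an interval of -0.13 to 0.14 (limma, adjusted p = 0.974). The word lost would overstate the change on this probe set, since its lowest reading of 7.06 stands far above the Trpn control.

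The 2 other Utf1 probe sets were weaker. Probe set 1443786_at read 4.45, 4.23 and 4.72 in DMSO, 3.25 and 3.15 with the inhibitor, and 4.29, 4.29 and 4.02 in released cells. Its inhibitor difference was -1.26 ± 0.14, and released and DMSO arrays overlapped, with a difference of -0.26 ± 0.12 (limma, adjusted p = 0.258). Probe set 1458333_x_at is the only one of the 10 whose inhibitor-treated and DMSO arrays overlapped, at 4.17 and 3.85 against 4.02, 4.03 and 4.03, with a difference of -0.02 ± 0.11. The suffix x marks probes that can also match other sequences.

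Tcl1, the AKT cofactor, had the smallest inhibitor difference among the 5 main probe sets and its released arrays overlapped the DMSO arrays. Its single probe set (1422458_at) read 9.71, 9.77 and 9.72 in DMSO, 8.68 and 8.56 with the inhibitor, and 9.72, 9.82 and 9.74 in released cells. Both inhibitor-treated arrays lay below all others. The inhibitor difference was -1.11 ± 0.071 (2.16-fold), and the released difference from DMSO was 0.03 ± 0.063 with an interval of -0.11 to 0.17 (limma, adjusted p = 0.854). As for the main probe set of Utf1, all arrays read far above the Trpn control.

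Gbx2, the LIF-responsive homeobox gene, was higher in released cells than in DMSO cells. Its single probe set (1420337_at) read 6.07, 5.70 and 5.89 in DMSO, 3.23 and 3.43 with the inhibitor, and 6.48, 6.49 and 6.63 in released cells. The groups did not overlap, and every released array lay above every DMSO array. The inhibitor difference was -2.56 ± 0.11 (5.88-fold), and both inhibitor-treated arrays stood just above the Trpn range. Released cells were 9.22-fold above inhibitor-treated cells and 1.57-fold above DMSO, by 0.65 ± 0.10 with an interval of 0.42 to 0.87 (limma, adjusted p = 0.00466). Of 18193 genes, 111 (0.61%) were at least this far above DMSO in released cells.

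Nkx1-2, the caudal homeobox gene, had the largest inhibitor difference among the 5 main probe sets, also as a lower bound, and the widest spread between inhibitor-treated arrays. The main probe set (1422050_at) read 6.64, 6.68 and 6.60 in DMSO, 2.49 and 3.02 with the inhibitor, and 7.14, 7.05 and 7.16 in released cells. Of the inhibitor-treated arrays, 1 lies inside the Trpn range and the other just above it, so the level there is at the array's floor. The measured inhibitor difference was -3.88 ± 0.13. With each inhibitor-treated array set to no less than its highest Trpn reading, Nkx1-2 was at least 13.6-fold lower than in DMSO. Released cells were 1.39-fold above DMSO, by 0.48 ± 0.12 with an interval of 0.22 to 0.73 (limma, adjusted p = 0.0368).

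The call of Nkx1-2 in released cells is narrow. Without any 1 of the 3 DMSO arrays the adjusted p was 0.0952, 0.0819 and 0.098, and without any 1 of the 3 released arrays 0.107, 0.0752 and 0.105, although released and DMSO arrays did not overlap. The other probe sets did not pass: 1422049_at differed by 0.09 ± 0.092 (adjusted p = 0.66, limma) and 1426177_a_at by 0.04 ± 0.089 (adjusted p = 0.867). With the inhibitor 1422049_at read 4.32 and 3.99 against 4.86, 4.71 and 4.68 in DMSO, a difference of -0.60 ± 0.10. Probe set 1426177_a_at read 3.55 and 3.70 against 4.13, 3.99 and 3.91, a difference of -0.38 ± 0.099. For the main probe set, the fit to all arrays also carries the spread of the inhibitor-treated arrays. Their SD was 0.37, against 0.042 in DMSO and 0.061 in released cells. With only the DMSO and released arrays its released difference was 0.48 ± 0.064 (limma, adjusted p = 0.00463).

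**Figure D2:**
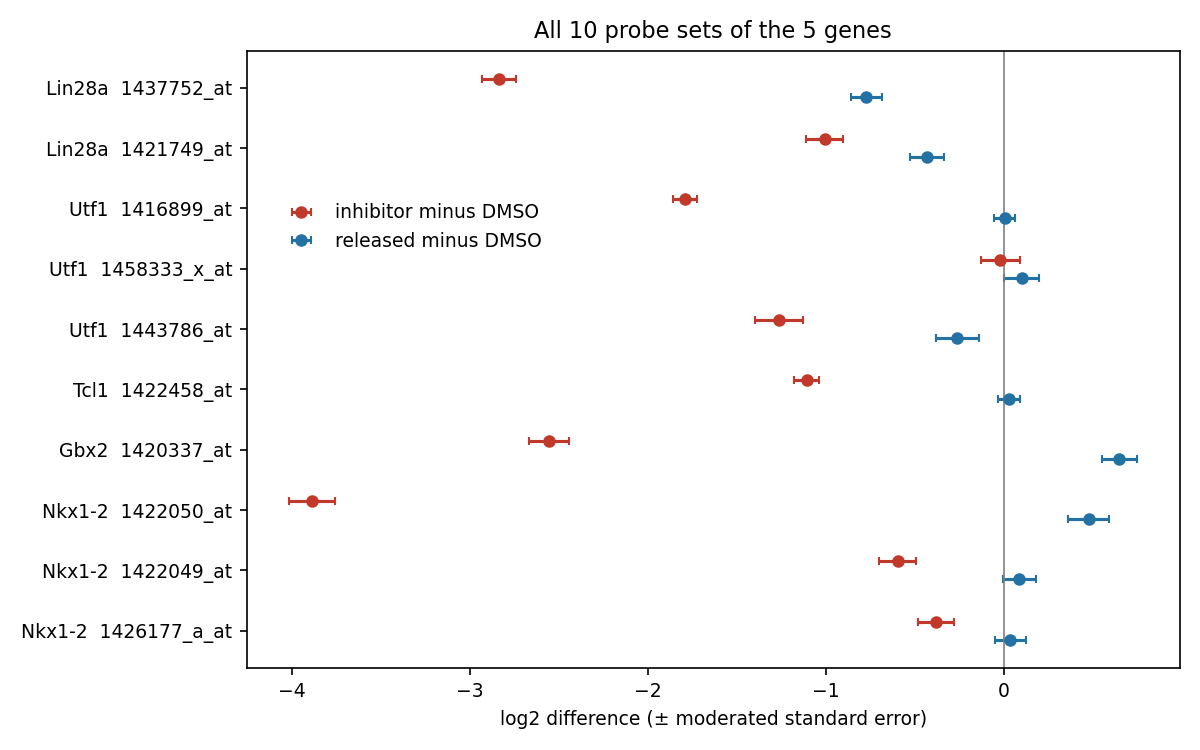
Log2 differences from DMSO (horizontal axis, ± moderated standard error) of inhibitor-treated and released cells for the 10 probe sets of the 5 genes. The inhibitor values of 9 probe sets lie clearly below 0 and that of Utf1 1458333_x_at lies at -0.02, and the released values run from -0.77 for Lin28a to 0.65 for Gbx2.

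Between the main probe sets, the order of the inhibitor differences was Nkx1-2, Lin28a, Gbx2, Utf1 and Tcl1, from the largest to the smallest. The order changed with the mean of all probe sets of a gene. It then was Gbx2 (-2.56), Lin28a (-1.92), Nkx1-2 (-1.62), Tcl1 (-1.11) and Utf1 (-1.03). Neither order is that of the released values of the main probe sets. There Lin28a was lowest, Utf1 and Tcl1 lay at 0 within their intervals, and Nkx1-2 and Gbx2 were highest. The intervals of Nkx1-2 (0.22 to 0.73) and Gbx2 (0.42 to 0.87) overlap, as do those of Utf1 and Tcl1, and that of Lin28a lies apart from the other 4. These are bulk samples, so fewer cells that transcribe a gene and less RNA per cell cannot be told apart.

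**Figure D3:**
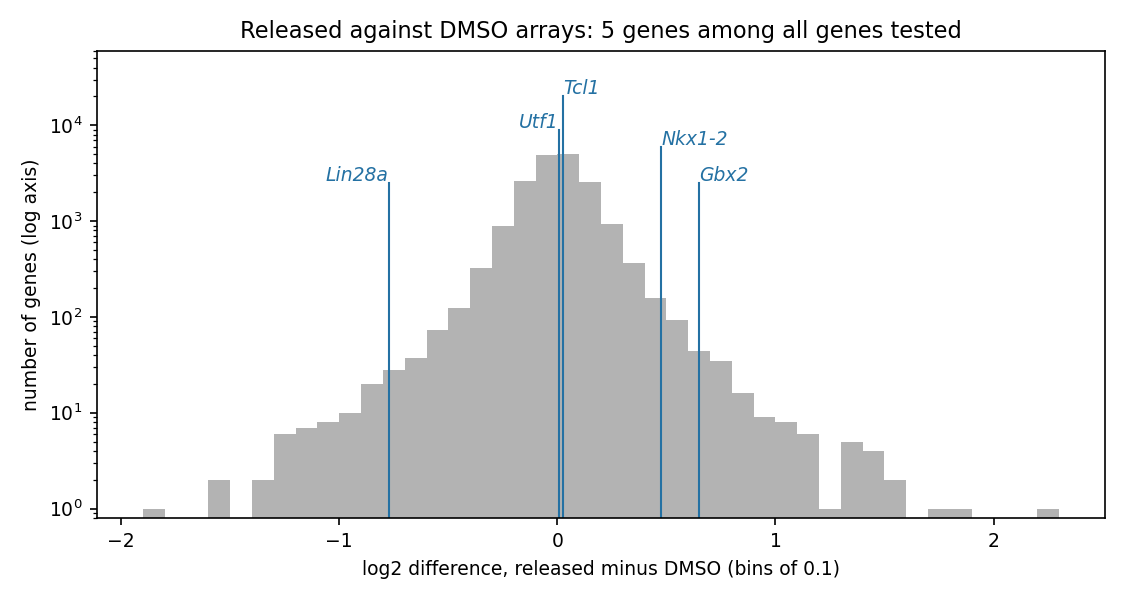
Log2 difference between released and DMSO cells (horizontal axis) over 18193 genes, with the number of genes per bin on a log axis (vertical); lines mark the 5 genes and their heights carry no value. Lin28a (-0.77) stands in the lower tail, Utf1 and Tcl1 at the centre, and Nkx1-2 (0.48) and Gbx2 (0.65) in the upper tail.

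Of 6 closest paralogues measured, 1 rose and 1 fell. Mtcp1 rose in inhibitor-treated cells by 0.47 ± 0.083 (limma, adjusted p = 0.00121), which turned to -0.026 when the mean of its probe sets was used, and Tcl1b3 fell by 0.34 ± 0.094 (adjusted p = 0.0148). Without inhibitor-treated replicate 2 the adjusted p of Tcl1b3 was 0.134. Lin28b, the other let-7 blocker, read 2.00 to 2.22 on the 8 arrays, at the floor, and Gbx1, Tcl1b1 and Tcl1b4 did not pass. Tcl1b4 missed narrowly (-0.23, limma, adjusted p = 0.0555) and passed in some alternatives, such as the level filter (adjusted p = 0.0336). Tcl1b1 passed as higher with the replicate block (adjusted p = 0.0321). No paralogue passed between released and DMSO cells. The probe sets of Tcl1b1 and Tcl1b3 carry the suffix x, so their probes can also match other sequences.

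The genes with the profile most like each member were found by Euclidean distance over the 8 arrays, with each gene set to 0 in DMSO. They were selected by these values, so their differences are a description, and correlations over 8 arrays in 3 groups mainly repeat the group differences. Lefty1, a secreted inhibitor of NODAL signalling, was nearest to Lin28a (distance 0.658, Pearson r = 0.987), with -2.77 in inhibitor-treated and -0.43 in released cells relative to DMSO. Smarcd3, a subunit of BAF chromatin remodelling complexes, followed Lin28a at 0.963, with -2.35 and -0.48, and Crip1 lay at 0.933.

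Nearest to Utf1 were Ube2c, a ubiquitin-conjugating enzyme of mitotic exit (distance 0.117, r = 0.999), Ccnb2, a mitotic cyclin (0.156, r = 0.998), and Tk1, the thymidine kinase of S phase (0.156, r = 0.998). Tcl1 lay nearest to Spc24, a kinetochore component (0.0815, r = 0.998), Aplp1 and Anp32e. Gbx2 lay nearest to Id3, which blocks DNA binding by helix-loop-helix factors (0.482, r = 0.994), with -2.43 in inhibitor-treated and 0.80 in released cells. Ccnd1, which encodes cyclin D1, was among the 3 nearest genes of both Gbx2 (0.768) and Nkx1-2 (1.74). Lefty2, the partner of Lefty1 in NODAL inhibition, was nearest to Nkx1-2 (1.10, r = 0.989), with -4.16 and -0.08. Among the 5 genes themselves, Utf1 and Tcl1 were closest (0.973) and Tcl1 and Nkx1-2 farthest apart (4.03).

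Other genes enriched in ESCs moved in both directions. Of 25 measured besides the 5 genes, 14 fell and 7 rose in inhibitor-treated cells, with a median log2 difference of -0.26, while 41.5% of all 18193 genes were called (19.2% higher, 22.3% lower) and their median was -0.06. Eras, a constitutively active RAS protein of ESCs, fell by 1.99 ± 0.11 (limma, adjusted p = 5.16e-07), and Phc1, a Polycomb subunit, fell by 0.91 ± 0.062 (adjusted p = 2.17e-06). The Eras probe set carries the suffix x, so its probes can also match other sequences. Dnmt3l, a cofactor of DNA methyltransferases, rose by 1.72 ± 0.089 (adjusted p = 4.23e-07), and Tex19.1, a germline and retrotransposon-control gene, rose by 1.14 ± 0.079 (adjusted p = 2.54e-06).

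In released cells 9 of these 25 genes were higher than in DMSO, none was lower, and the median was 0.17 against 0.00 for all genes. Of all 18193 genes, 4.66% were called higher and 4.01% lower in this comparison. Eras was higher by 0.51 ± 0.096 (limma, adjusted p = 0.0107), so it went from below DMSO to above it, as Gbx2 did. Dnmt3l stayed higher, by 1.77 ± 0.080 (adjusted p = 8.72e-06). No gene of the 25 passed below DMSO in this fit, as Lin28a did, although Fgf4 (-0.15 ± 0.056, adjusted p = 0.144) and Dppa5a (-0.05 ± 0.053, adjusted p = 0.631) also read lower than DMSO in both comparisons. Fbxo15 (-0.22 ± 0.065, adjusted p = 0.075) passed below DMSO with a level filter (0.0388) and with a variance trend and robust fitting (0.00155), as did Fgf4 with the latter (0.0167). With a variance trend and robust fitting 18 of the 25 genes were called in either direction, Fbxo15 and Fgf4 among them as lower.

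**Figure D4:**
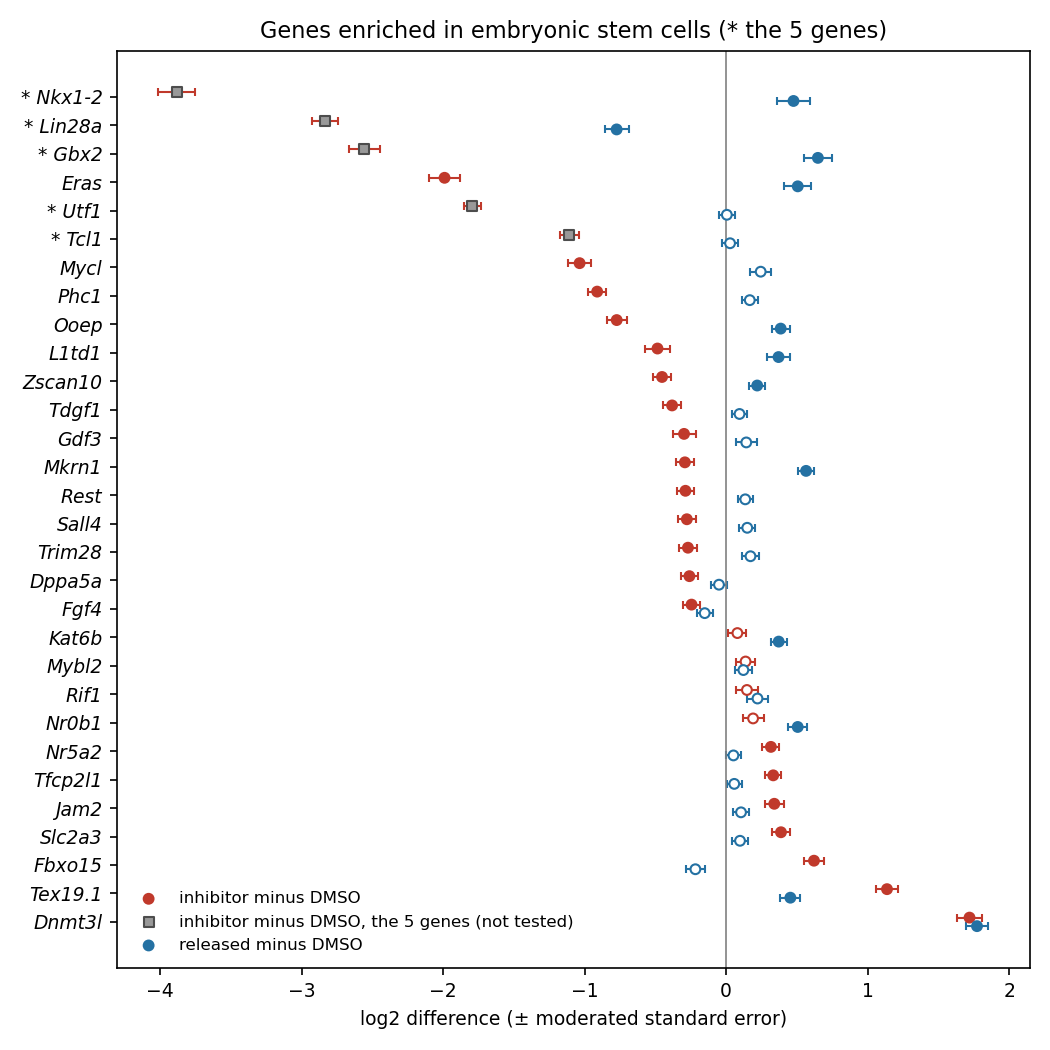
Log2 differences from DMSO (horizontal axis, ± moderated standard error) of ESC-enriched genes, with the 5 genes marked by an asterisk; filled circles have an adjusted p under 0.05, open circles do not, and grey squares were not tested. Lin28a alone is called lower in released cells, while Gbx2, Nkx1-2 and 9 of the other 25 genes are called higher.

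Around Lin28a, the genes of let-7 processing and the known let-7 targets were followed. The arrays do not measure mature let-7. Of 17 processing genes, 4 rose and 8 fell in inhibitor-treated cells, and 2 were lower in released cells, with medians of -0.07 and 0.00, against 41.5% and 8.66% of all genes called. The number called in released cells in either direction ran from 1 to 6 over the alternatives. Tarbp2, a DICER partner, fell by 0.65 ± 0.066 (limma, adjusted p = 3.2e-05), while Prkra, another DICER partner, rose by 0.87 ± 0.096 (adjusted p = 5.53e-05), or by 0.38 with the mean of its probe sets. Only 6 of the 17 were called without inhibitor-treated replicate 2.

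Of 16 let-7 targets, 4 rose and 4 fell in inhibitor-treated cells, and 1 was higher in released cells. The number called in released cells in either direction ran from 0 to 5 over the alternatives. The 5 came with a variance trend and robust fitting, where Hmga2 (-0.32) and Mycn (-0.14) were among those called, as lower. Cdk6, a kinase of the G1 phase, fell by 2.04 ± 0.079 (limma, adjusted p = 8.21e-08), and Cdc25a, a phosphatase that activates cyclin-dependent kinases, fell by 1.31 ± 0.080 (adjusted p = 1.17e-06). Hmga2, an architectural chromatin protein, rose by 1.19 ± 0.10 (adjusted p = 8.99e-06). In released cells Cdk6 differed from DMSO by 0.03 and Cdc25a by -0.04, and neither passed.

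Around Utf1, 7 other genes with a joint OCT4 and SOX2 element were measured, of which 2 rose and 2 fell in inhibitor-treated cells. Lefty1 fell by 2.77 ± 0.097 (limma, adjusted p = 4.44e-08), while Zfp42 (also called Rex1) and Fbxo15 rose by 0.69 and 0.62. In released cells Lefty1 was the only one of the 7 that passed, at -0.43 ± 0.087 (adjusted p = 0.0144). Without DMSO replicate 2 or released replicate 2 its adjusted p was 0.0534 or 0.0552, and 5 of the 7 passed with a variance trend and robust fitting. Around Tcl1, 17 genes of the TCL1, AKT and PI3 kinase branch gave 4 rises and 3 falls with the inhibitor, and 4 were higher than DMSO after release. Without DMSO replicate 1 or 2, or released replicate 2, or with the replicate block, 2 were called after release. Eras, which activates PI3 kinase, is in that list too, and Pik3r2, a regulatory subunit of PI3 kinase, fell by 0.48.

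Around Gbx2 and Nkx1-2, 14 related homeobox genes were measured, of which 2 rose and 4 fell in inhibitor-treated cells. In released cells none was higher than DMSO and 5 were lower. Otx2, the anterior counterpart of Gbx2 in brain patterning, fell by 0.92 ± 0.15 (limma, adjusted p = 0.000751) with the inhibitor and stood at -1.88 ± 0.14 (adjusted p = 5.68e-05) in released cells. Hesx1, a homeobox gene of the anterior neural plate, fell by 1.20 ± 0.090 and stood at -1.23 ± 0.080 after release (adjusted p = 4.21e-06 and 3.52e-05). Nkx6-2 stood at -1.15 ± 0.12 and -1.06 ± 0.11 (adjusted p = 4.64e-05 and 0.000438). Of 14 genes of the midbrain and hindbrain boundary, which share Otx2, En1 and En2 with that list, 3 rose and 2 fell, and 2 were lower after release. Without DMSO replicate 2 or inhibitor-treated replicate 1, the 5 called with the inhibitor became 3 or 2.

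Of 17 caudal epiblast genes, the setting in which Nkx1-2 is known, 1 rose and 7 fell in inhibitor-treated cells, and 1 was higher and 1 lower in released cells. Cdx1, a caudal homeobox gene that responds to WNT, fell by 1.56 ± 0.088 (limma, adjusted p = 7.02e-07) and was then higher than DMSO by 0.69 ± 0.079 (adjusted p = 0.000752), the same order of groups as Nkx1-2. Fgf17, a growth factor gene, fell by 1.20 ± 0.087 and stood at -0.44 ± 0.078 (adjusted p = 3.55e-06 and 0.00784), or at -0.77 after release with the mean of its probe sets. Sp5, a WNT target, fell by 1.24 ± 0.10, and its released difference of 0.26 ± 0.092 did not pass (adjusted p = 0.128). The count of 8 called with the inhibitor was 5 without DMSO replicate 2, with repeated quantile normalization and at the 0.01 threshold.

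Core markers of ESCs read high in all 3 groups. The mean level of 10 markers, among them Pou5f1, Sox2 and Nanog, was 11.17 to 11.19 on DMSO arrays, 11.30 on both inhibitor-treated arrays and 11.19 to 11.21 on released arrays. Of the 10, 4 rose and 2 fell with the inhibitor, with Klf4 up by 0.46 ± 0.076 (limma, adjusted p = 0.000794), and none passed after release. Without inhibitor-treated replicate 2, 3 of the 10 were called with the inhibitor, and 4 passed after release with a variance trend and robust fitting. Myc itself differed by -0.17 ± 0.12 with the inhibitor, which did not pass (adjusted p = 0.316), and was higher by 0.54 ± 0.11 in released cells (adjusted p = 0.0148). Without DMSO replicate 1 or released replicate 1 the adjusted p of Myc was 0.058 or 0.0513. Mycn and Max passed in neither comparison with DMSO, except Mycn in released cells with a variance trend and robust fitting (-0.14, adjusted p = 0.034).

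Markers of other cell types were followed too, against 19.2% of all genes higher and 22.3% lower with the inhibitor. Of 12 trophectoderm markers 6 rose and none fell, and their mean level was 5.32 to 5.43 in DMSO, 6.40 to 6.49 with the inhibitor and 5.34 to 5.47 after release. Krt8, a keratin, rose by 3.24 (on a probe set with the suffix x) and Eomes, a T-box factor, by 2.23. Krt18, another keratin, rose by 4.996 and Gata3, a trophectoderm regulator, by 1.28 (limma, adjusted p = 1.86e-08 and 1.99e-05), from a Gata3 level of 2.52 in DMSO inside the Trpn range to 3.81. Cdx2, at 4.93 in DMSO and 4.73 with the inhibitor, and Elf5, at 2.89 and 2.97, did not pass. Of neural markers 4 of 10 fell (5.31 to 5.43 in DMSO, 4.95 to 4.97 with the inhibitor, 5.15 to 5.27 after release), of endoderm markers 3 of 12 (3.96 to 3.98, 3.81 to 3.85, 3.93 to 3.99), and of fibroblast markers 2 of 11 (4.22 to 4.25, 4.04 to 4.07, 4.22 to 4.24). Of 10 mesoderm markers 1 rose and 2 fell (4.64 to 4.81, 4.72, 4.58 to 4.65). The 1 that rose was Eomes, which is also counted among the trophectoderm markers. After release 1 trophectoderm marker was higher and 2 were lower than in DMSO, as were 3 neural markers and 1 mesoderm marker, and none of the fibroblast or endoderm markers passed, though 1 of each did in some alternatives. These are transcripts in bulk RNA, and whether other cell types were present or had a part in the levels of the 5 genes was not tested.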

How the data were processed

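Total RNA of mouse ESCs was measured on 8 Affymetrix GeneChip arrays. The authors deposited log2 expression values made with RMA, and the submitters' processing notes name oligo 1.32.0 and limma 3.2.15. The log2 scale is inferred from the range of the deposited values (1.69 to 13.76). RMA equalises the distribution of values between arrays, so a change of RNA amount shared by most genes is not visible. The platform annotation gives a single gene for 34945 of 45101 probe sets and more than 1 for 932; 9160 are unnamed here and 64 are controls.

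Groups were compared by moderated linear models (limma 3.58.1, lmFit and eBayes, in R 4.3.3) fitted to all 8 arrays with a mean for each group, leaving 5 residual degrees of freedom. Members were tested among all 34945 probe sets. Gene lists and background counts used, for each of 18193 genes, the probe set with the highest mean. Two-sided p-values received Benjamini-Hochberg adjustment, and the threshold was 0.05. The fit was tested on simulated data. Promoter tables were read and figures drawn in Python 3.11.15 (pandas 2.3.3, numpy 2.4.6, matplotlib 3.10.9).

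The members and the 15 gene lists were chosen with earlier results of these data known. Besides members and paralogues, the genes to be named were up to 4 per list with the smallest p between inhibitor-treated and DMSO arrays, the 3 nearest profiles per member, and Myc, Mycn and Max; Pou5f1, Sox2, Nanog, En1, Cdx2 and Elf5 are named as list members. Alternatives were the mean of a gene's probe sets, members among 1 probe set per gene, a variance trend with robust fitting, a level filter at the 30th percentile, array weights, median centring, a threshold of 0.01, only the arrays compared, repeated quantile normalization, a replicate block, and leaving out each array.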

Additional observations from a re-analysis of the deposited data

How the results depend on the processing

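Under the 18 alternatives, Lin28a (1437752_at) stayed below DMSO in released cells past the threshold in 18 of 18 (-0.82 to -0.60, limma, adjusted p 9.5e-07 to 0.00462), as did Gbx2 above DMSO (0.55 to 0.74, adjusted p 0.000174 to 0.0219). Utf1 and Tcl1 passed in 0 of 18. The 18 are not independent. Leaving out either inhibitor-treated array gave the same result for this comparison as using only the arrays compared. The 0.01 threshold used the main fit. Nkx1-2 passed in 8 of 18 and missed, beside the left-out arrays, with the mean of its probe sets (0.20, adjusted p = 0.0722), median centring (adjusted p = 0.0508), the 0.01 threshold and the replicate block (adjusted p = 0.0527). The 4 member probe sets called in released cells became 2 with the mean of all probe sets, 2 at 0.01, and 2 to 4 when 1 array was left out. The 1576 genes called became 2641 with the variance trend and robust fitting, 657 at 0.01, and 1000 to 1344 when 1 array was left out. Mtcp1 reversed to -0.026 with the mean of all probe sets. Same-numbered arrays did not deviate together (r from -0.0562 to 0.0141), so the numbers are not taken as pairs; the replicate block left 3 member probe sets and 1180 genes called in released cells. The mean of all probe sets reduced the inhibitor differences to -1.92 for Lin28a, -1.03 for Utf1 and -1.62 for Nkx1-2. Only 2 inhibitor-treated arrays were made, and the lowest 15.3% of probe sets lie below the highest Trpn reading, where changes are compressed.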

Other observations

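Irx3, a homeobox gene of neural patterning and a member of the midbrain and hindbrain list, ran opposite to Gbx2: it rose by 2.25 ± 0.090 in inhibitor-treated cells (limma, adjusted p = 9.9e-08) and differed from DMSO by 0.04 ± 0.081 in released cells (adjusted p = 0.83). Hoxb9, a trunk homeobox gene of the caudal list, rose by 1.13 ± 0.12 in inhibitor-treated cells (adjusted p = 4.58e-05), while Cdx1 and Sp5 of that list fell. Map2, a microtubule protein of neurons, fell by 2.13 (by 0.74 with the mean of its probe sets) and Tubb3, a neuronal tubulin, by 1.39 in inhibitor-treated cells. Gsc, a homeobox gene of the organizer, fell by 1.57.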
